A study of Homo sapiens with 18 samples.

Results

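The comparison described here set OCI-AML1 cells cultured with SEL120-34A for 24 h against OCI-AML1 cells cultured with the solvent DMSO for 24 h. It used the 3 libraries titled SEL120 and the 3 titled DMSO of that time, 6 of the 18 libraries of the series, and all genes that passed a filter on low counts. OCI-AML1 is an established line of human acute myeloid leukaemia, labelled as blood with a WT genotype. By its title, the study asked how blocking the Mediator kinases affects leukaemia cells and their response to venetoclax, a BCL2 inhibitor. The remaining groups, with 3 libraries each, were AML874 at 24 h and all 3 treatments at 8 h. The labels give no dose for either compound. They number the replicates but do not say whether these were separate cultures, so the p-values measure the spread between libraries, which may be technical.

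Mediator is the large complex that carries signals from transcription factors to RNA polymerase II. Its detachable kinase module holds CDK8 or its paralogue CDK19 with cyclin C (CCNC), MED12 and MED13, and phosphorylates transcription factors and other regulators of polymerase activity. SEL120-34A is a small molecule made to block the kinase activity of CDK8 and CDK19. AML874, the other compound of the series, is known here only by its code name. In leukaemia cells the module is known for restraining genes near strong enhancers and for supporting the output of signalling pathways such as STAT and serum response signalling.

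Counts in genes ranged from 99790399 to 142496541 in the 6 libraries, and 26942 to 28023 genes had at least 1 count. Of 12 myeloid marker genes, 8 were at 1 CPM (counts scaled to a common library size) or more in both groups. The summed level of the list was 1040 to 1077 CPM with DMSO and 948 to 956 CPM with SEL120-34A, and 1 marker rose and 7 fell. ANPEP and CSF2RA, also on that list, had at most 1 count in any library. CSF2RA lies in a region shared by chromosomes X and Y, and the counting sets reads with several alignments aside. Its count therefore does not show whether it was expressed. Of the markers of other cells, those of erythroid and epithelial cells summed to under 0.1 CPM in every library and HBB, PF4, MS4A1 and CD3G had 0 counts. The summed T cell list was 3.50 to 5.21 CPM with DMSO and 7.21 to 7.73 CPM with SEL120-34A, nearly all of it TRAC. The B cell list was 1.15 to 1.55 and 0.558 to 0.830 CPM, the NK cell list 1.99 to 2.18 and 1.22 to 1.54 CPM, and the megakaryocyte list 1.23 to 1.89 and 2.08 to 2.699 CPM, each resting on 1 called gene (CD79A, NKG7 and ITGA2B). The part of such cells in the results was not tested. In these bulk samples, fewer cells of a type and less RNA per cell cannot be told apart.

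Over 24 h SEL120-34A moved a large share of the transcriptome by small amounts. Of 20920 genes tested, 7879 (37.7%) were called at an adjusted p under 0.05 (edgeR quasi-likelihood test, Benjamini-Hochberg adjustment). Of these, 3996 were higher (19.1% of genes tested) and 3883 lower (18.6%), and the median change of all genes was 0.01 on the log2 scale. The unadjusted p was under 0.05 for 9389 genes. All 3 treated libraries lay above all 3 controls for 23.1% of the genes and below them for 22.7%. Changes of 2-fold or more were fewer, 568 higher and 142 lower, and 479 and 111 of these had a mean under 1 CPM. Among the 2391 genes at 100 CPM or more, 58.0% were called, with a median size of 0.13, and 3 rose and 0 fell by 2-fold. At that level 611 genes rose and 776 fell. At 20 to 100 CPM 1149 rose and 1721 fell among 5452, and at 5 to 20 CPM 682 rose and 654 fell among 2685. Counts of list members below are to be read beside these. All changes below are log2 fold changes of SEL120-34A over DMSO with their standard error (SE), and group levels are means ± SD with n = 3 libraries.

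**Figure D1:**
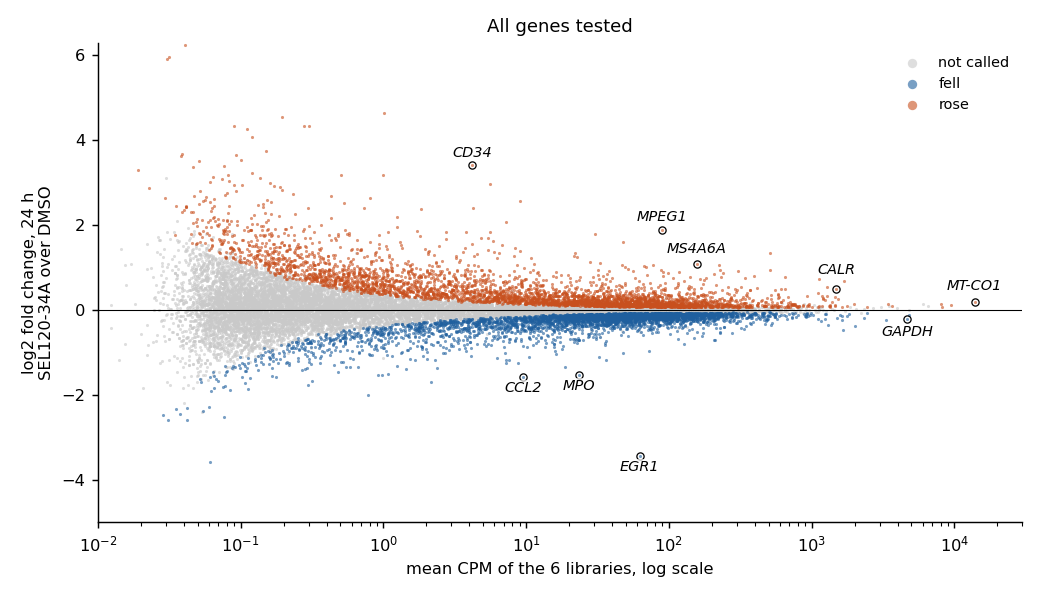
Log2 fold change at 24 h (y axis) against the mean CPM of the 6 libraries (x axis, log scale), 1 point per gene tested, with called rises in orange, called falls in blue and named genes circled. The spread of the changes narrows with level: EGR1 and CD34 lie far from 0, while MT-CO1 and GAPDH, the most abundant of the circled genes, changed by 0.18 and -0.22.

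CD34, the surface sialomucin of haematopoietic stem and progenitor cells (chromosome 1, 207880972 to 207911402, GRCh38), had the largest rise of the protein-coding genes that reached 5 CPM. It stood at 0.622, 0.736 and 0.789 CPM in the DMSO libraries and at 7.29, 7.87 and 7.73 CPM in the SEL120-34A libraries. The lowest SEL120-34A library was far above the highest DMSO library. The change was 3.41 ± 0.11, or 10.7-fold (edgeR adjusted p = 3.8e-23). Of 12 progenitor surface genes tested, 8 rose and 1 fell, with a median of 0.28. KIT, the receptor of stem cell factor, rose by 1.66 ± 0.25 from a low level (0.206 ± 0.0793 CPM with DMSO). FLT3, a receptor tyrosine kinase of early progenitors, rose by 0.46 ± 0.05, CD38, a NAD-consuming ectoenzyme, by 0.62 ± 0.03, and CD96, an adhesion receptor of leukaemic stem cells, by 0.41 ± 0.03. CD33, a sialic acid-binding receptor of myeloid cells, was at 80.5, 84.0 and 84.2 CPM with DMSO and at 60.5, 60.3 and 58.7 CPM with SEL120-34A, a change of -0.47 ± 0.03. It moved against the other called genes of the list, with all 3 treated libraries below all 3 controls.

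The promoter of CD34 is shown with that of EGR1, since these genes had the largest rise and the largest fall among protein-coding genes that reached 5 CPM in one group. Both hold the CArG box, the binding motif of serum response factor, here marked in capitals. The sequences are the 250 bases before the RefSeq transcription start, 5′ to 3′ on the gene's strand, in GRCh38.p14, at chr1:207911126-207911375 on the minus strand and chr5:138465229-138465478 on the plus strand.
CD34: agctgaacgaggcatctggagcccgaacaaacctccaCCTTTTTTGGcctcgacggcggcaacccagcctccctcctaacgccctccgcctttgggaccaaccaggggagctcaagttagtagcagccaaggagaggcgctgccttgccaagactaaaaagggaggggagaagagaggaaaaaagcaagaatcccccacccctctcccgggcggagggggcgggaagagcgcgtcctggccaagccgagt
EGR1: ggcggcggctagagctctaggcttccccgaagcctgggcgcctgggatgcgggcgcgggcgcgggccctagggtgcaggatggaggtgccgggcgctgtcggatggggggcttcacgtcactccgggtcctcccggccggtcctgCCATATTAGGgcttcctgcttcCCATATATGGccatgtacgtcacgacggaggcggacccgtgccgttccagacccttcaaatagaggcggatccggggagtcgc
The CD34 window had 1 match and the EGR1 window 2, which begin 105 and 83 bases before the start. The CD34 window lies within the range given above for that gene, as the RefSeq start differs from the end of that range. Of 35093 RefSeq promoter windows of this length, 1.16% held a CArG box, which reads the same way on both strands. It was in 2 of 9 windows of EGR and NAB genes, 1 of 20 of AP-1 and immediate early genes and 0 of 19 of ERK pathway genes. These matches describe the letters of the window and not a site in use.

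The next largest rise was that of GPR174, a receptor for lysophosphatidylserine. Its libraries were at 2.82, 2.37 and 2.59 CPM with DMSO and at 15.2, 15.6 and 15.4 CPM with SEL120-34A, a change of 2.57 ± 0.07 (edgeR adjusted p = 1.01e-24). The treated libraries lay within 0.5 CPM of each other. Of 17 receptors for lysophospholipids and purines tested, 9 rose, with a median of 0.37. P2RY14, a receptor for UDP-sugars, rose by 2.19 ± 0.15, GPR183, an oxysterol receptor that guides immune cells, by 0.96 ± 0.10 and S1PR3, a sphingosine 1-phosphate receptor, by 0.49 ± 0.06. Of the rest of the 15 largest rises, RAB7B, a small GTPase of late endosomes, went from 1.35 ± 0.142 to 7.17 ± 0.315 CPM, while its paralogue RAB7A fell by 0.11 on the log2 scale. GGT5, which converts leukotriene C4, rose by 2.07 ± 0.09, and MYOM1, SDK2, KCNN2, RHEX and FMN1 rose by 1.42 to 1.84.

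**Figure D2:**
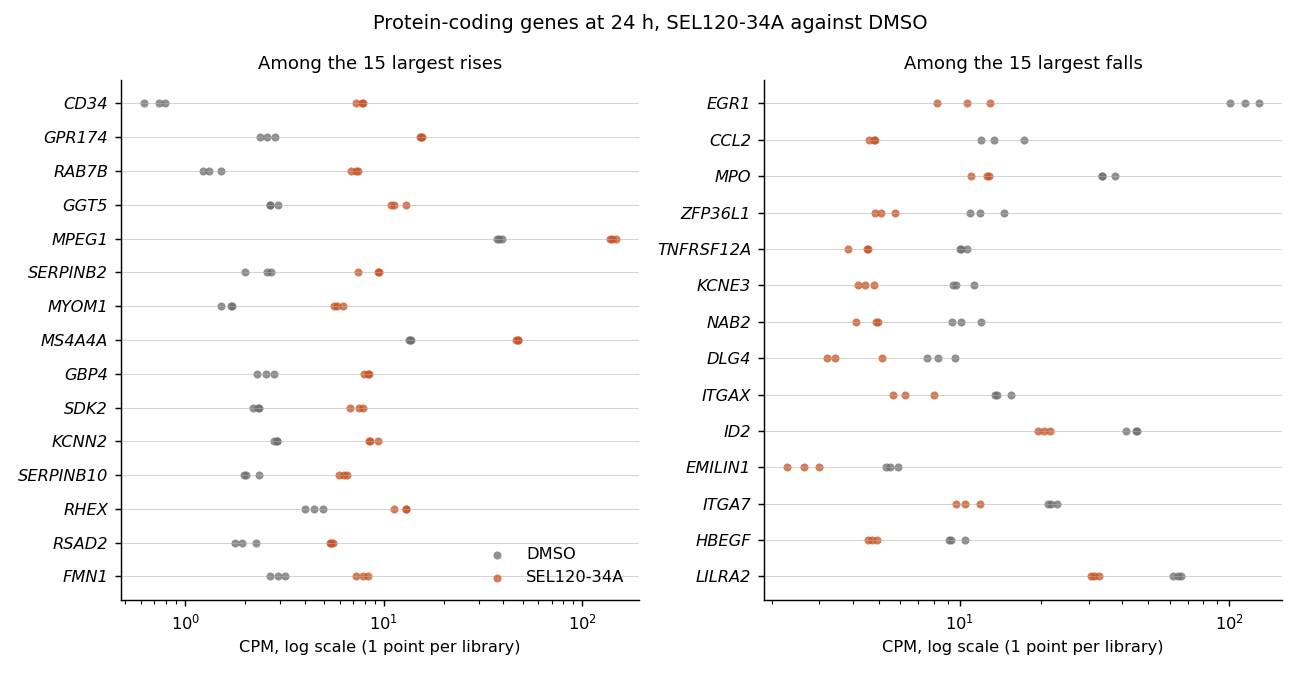
CPM in each library (x axis, log scale) of the 15 largest rises (left) and 14 of the 15 largest falls (right) among protein-coding genes that reached 5 CPM in one group, with DMSO in grey and SEL120-34A in orange. The groups do not overlap for any of the 29 genes, which the rule for naming them required.

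EGR1, an immediate early zinc finger factor (chromosome 5, 138465490 to 138469315), had the largest fall by the same measure. Its libraries were at 129, 101 and 115 CPM with DMSO and at 8.23, 12.9 and 10.6 CPM with SEL120-34A. The highest treated library was far under the lowest control. The change was -3.45 ± 0.23, 10.9-fold lower (edgeR adjusted p = 5.27e-08). Its paralogue EGR2 fell as well (-1.33 ± 0.22), and so did the corepressors of EGR proteins, NAB2 (-1.18 ± 0.09) and NAB1 (-0.35 ± 0.04). NAB2 was at 12.0, 9.33 and 10.1 CPM in the DMSO libraries and at 4.96, 4.88 and 4.10 CPM in the treated ones. EGR3 was at 0.219, 0.260 and 0.197 CPM and then at 0.172, 0.181 and 0.197 CPM, a difference of -0.30 ± 0.37 that did not pass. EGR4, under 1 CPM throughout, rose by 0.74 ± 0.21. The EGR and NAB genes held 4 falls and 1 rise among 6, with a median of -0.76.

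Genes that ERK signalling induces, many of which feed back to damp it, mostly fell: 12 of 17 tested, with 3 rises and a median of -0.35. ETV5, an ETS factor at the end of the pathway, was at 21.9, 18.6 and 19.0 CPM with DMSO and at 10.9, 11.3 and 12.1 CPM with SEL120-34A, a change of -0.79 ± 0.06. SPRED1, which recruits neurofibromin to RAS, was at 27.4, 27.5 and 28.6 CPM and then at 17.0, 17.0 and 17.3 CPM, a change of -0.70 ± 0.04. The groups were separate for both genes, with treated libraries almost level in SPRED1. Further falls were those of SPRY2, an inhibitor of receptor signalling (-0.65 ± 0.04), SPRED2 (-0.38 ± 0.03) and DUSP6, the phosphatase of ERK itself (-0.22 ± 0.04). SPRED3, DUSP5 and DUSP10 were the 3 that rose, by 0.85, 0.21 and 0.28. SPRED3 was low and uneven in TPM, a level scaled to gene length. It was at 0.2, 0.21 and 0.26 TPM with DMSO and at 0.78, 0.16 and 0.4 TPM with SEL120-34A. HBEGF, a ligand of the EGF receptor, was among the 15 largest falls, at 10.5, 9.12 and 9.24 CPM with DMSO and 4.92, 4.55 and 4.72 CPM with SEL120-34A (-1.02 ± 0.07).

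Of 24 AP-1 and immediate early genes tested, 11 fell and 2 rose (median -0.15). The mean of the list was 4.5, 4.33 and 4.37 log2 CPM in the DMSO libraries and 4.20, 4.33 and 4.21 log2 CPM in the SEL120-34A libraries, so that treated replicate 2 was level with the lowest control. Without that replicate 11 fell as well. IER2, a short-lived nuclear protein, was at 151, 137 and 138 CPM with DMSO and at 87.2, 90.3 and 87.1 CPM with SEL120-34A, a change of -0.69 ± 0.04. The AP-1 subunits JUNB, FOSL1, FOS and JUN fell, with changes of -0.37 ± 0.04, -0.50 ± 0.06, -0.84 ± 0.10 and -0.70 ± 0.15. SRF, the serum response factor that binds CArG boxes, rose by 0.23 ± 0.03, with all treated libraries above all controls. Of the 16 tested STAT5 targets and cytokine feedback genes, 11 fell, with a median of -0.27, and the same number fell under each of the 16 alternative settings of the analysis. PIM1, a survival kinase, was at 189, 184 and 179.8 CPM with DMSO and at 129, 129.6 and 127 CPM with SEL120-34A, a change of -0.52 ± 0.03 (edgeR adjusted p = 5.02e-18). Other falls were those of CCND3, a D-type cyclin (-0.53 ± 0.04), ID1 (-0.68 ± 0.06), OSM, a cytokine of the IL6 family (-0.95 ± 0.12), and CISH, an inhibitor of cytokine signalling (-0.26 ± 0.03). BCL6, a repressor that STAT5 represses, was the only one to rise, by 0.91 ± 0.07.

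Inflammatory and NF-kappaB target genes held 11 falls and 0 rises among 25 tested (median -0.14), and 1 to 2 rises under 6 of the alternative settings. CCL2, the monocyte chemoattractant, was at 17.2, 12.0 and 13.4 CPM with DMSO and at 4.59, 4.81 and 4.85 CPM with SEL120-34A, a change of -1.58 ± 0.16 (edgeR adjusted p = 3.31e-06). The neutrophil chemokines CXCL1 and CXCL2 fell (-0.71 ± 0.06 and -0.70 ± 0.09), as did IL1B (-0.73 ± 0.16) and the adhesion molecule ICAM1 (-0.60 ± 0.07). NFKBIA and TNFAIP3, inhibitors of NF-kappaB, were at 0.02 ± 0.04 and 0.06 ± 0.15 and did not pass. RELA, a subunit of NF-kappaB, was at 0.06 ± 0.03 (adjusted p = 0.0608) and passed under 4 alternatives, among them without replicate 1 of DMSO and without replicate 2 of SEL120-34A. ZFP36L1, which destabilises AU-rich messenger RNA, was at 14.6, 10.8 and 11.9 CPM and then at 5.11, 5.73 and 4.82 CPM, a change of -1.26 ± 0.14. Its paralogue ZFP36L2 was at 0.01 ± 0.03 (95% interval -0.05 to 0.08) and did not pass. ZFP36 fell by 0.26 ± 0.08 (adjusted p = 0.0171), a call lost without replicate 1 of DMSO, without replicate 1 or 3 of SEL120-34A, and when only the libraries of these 2 groups were modelled. TNFRSF12A, the receptor of TWEAK, fell by 1.24 ± 0.07. ID2, a dominant-negative helix-loop-helix protein, was at 45.2, 45.4 and 41.2 CPM with DMSO and at 21.5, 19.4 and 20.5 CPM with SEL120-34A (-1.10 ± 0.05). ID2 belongs to a list of ID and SMAD pathway targets in which 11 of 17 fell and 4 rose (7 falls without replicate 1 of DMSO).

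**Figure D3:**
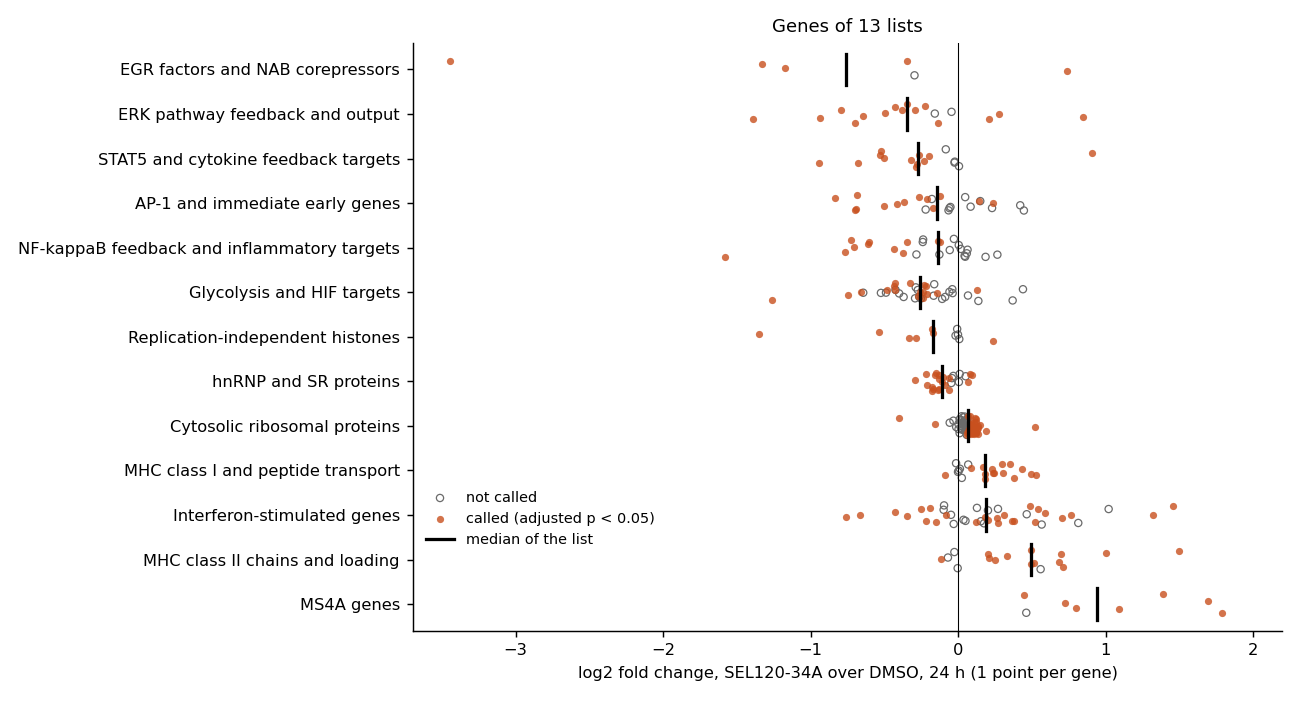
Log2 fold changes (x axis) of the genes of 13 lists (y axis), 1 point per gene, filled where called and open where not, with the median of each list as a black bar. EGR1 at -3.45 lies farthest left. The list medians run from -0.76 for EGR and NAB genes to 0.94 for MS4A genes.

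Most measured genes of antigen presentation rose. MHC class II molecules are assembled from alpha and beta chains with the invariant chain CD74, are loaded with peptide through HLA-DM, and are driven by the coactivator CIITA. Of 17 class II genes tested, 12 rose and 1 fell, with a median of 0.49. CIITA was at 96.9, 99.9 and 94.3 CPM with DMSO and at 151, 163 and 155 CPM with SEL120-34A, a change of 0.69 ± 0.04 (edgeR adjusted p = 8.4e-15). HLA-DRA was at 253, 237 and 237 CPM and then at 345, 339 and 342 CPM, a change of 0.50 ± 0.03. No treated library of either gene reached down to the controls. HLA-DPA1 and HLA-DPB1 rose by 0.49 ± 0.03 and 0.51 ± 0.03, HLA-DRB1 by 0.25 ± 0.04 and CD74 by 0.33 ± 0.03. Both chains of HLA-DM rose, HLA-DMA by 0.71 ± 0.05 and HLA-DMB by 0.70 ± 0.08. HLA-DOA, a chain of the modulator of HLA-DM, had the largest rise of the list, 1.50 ± 0.11, from 1.55, 1.08 and 1.26 CPM with DMSO to 3.74, 3.29 and 3.92 CPM with SEL120-34A, while its partner chain HLA-DOB was at -0.07 ± 0.19 and did not pass.

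Of the factors that bind class II promoters, RFX5 rose by 0.21 ± 0.02, and RFXANK and RFXAP were at -0.00 ± 0.03 and -0.03 ± 0.04. HLA-DQA1 rose by 1.00 ± 0.23 at under 1.2 CPM, a call lost with RSEM counts, and HLA-DQB1 was at 0.56 ± 0.31 and did not pass (adjusted p = 0.169) except without replicate 3 of SEL120-34A. HLA-DRB5 rose by 0.20 ± 0.08 (adjusted p = 0.0469), a call lost under 14 of the 16 alternative settings. HLA genes are similar copies of each other, and the counting sets reads with several alignments aside, so their levels are uncertain. CTSS, the protease that removes the invariant chain, was the one called fall, at -0.12 ± 0.03. IFI30, also on the list, had at most 4 counts and was not tested.

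MHC class I and peptide transport genes rose in 14 of 21, with 1 fall and a median of 0.18. TAP1, which carries peptides into the endoplasmic reticulum, was at 51.6, 49.0 and 48.1 CPM with DMSO and at 69.7, 72.7 and 72.4 CPM with SEL120-34A, a change of 0.53 ± 0.03. CALR, a chaperone of class I loading and among the more abundant transcripts, rose by 0.50 ± 0.02, and PSME1 and PSME2, subunits of the proteasome activator, by 0.30 ± 0.03 and 0.35 ± 0.03. Of 40 interferon-stimulated genes, 16 rose and 9 fell, with a median of 0.19. RSAD2 (viperin) was at 1.78, 2.26 and 1.93 CPM and then at 5.45, 5.36 and 5.55 CPM, a change of 1.46 ± 0.08. OAS2, IFIT3 and IFI16 rose by 1.32, 0.54 and 0.52, whereas MX1 and ISG20, both antiviral effectors, had changes of -0.76 ± 0.16 and -0.66 ± 0.22, the latter a call lost without replicate 2 of DMSO. Among regulators, IRF1 went from 50.6 ± 1.24 to 90.0 ± 1.69 CPM (0.83 ± 0.03), IRF8, a factor of monocytes and dendritic cells, rose by 0.53 ± 0.02 and JAK2 by 0.40 ± 0.03.

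All 5 guanylate-binding protein genes tested rose. GBP4 was at 2.54, 2.80 and 2.31 CPM with DMSO and at 7.98, 8.34 and 8.45 CPM with SEL120-34A (1.70 ± 0.08). GBP2 was at 33.5, 25.5 and 26.3 CPM and then at 38.7, 49.4 and 41.8 CPM (0.60 ± 0.12), GBP5 changed by 1.45 ± 0.21 at about 1 CPM or less, and GBP3 by 0.28 ± 0.06. GBP1 had 0 counts in every DMSO library and 22 counts over the 3 treated libraries. With the controls set to 3 counts over the group, this was 8.13-fold higher. The treated libraries were uneven, at 0.06, 0.17 and 0.03 TPM for GBP1. Its call was lost with unstranded counts (adjusted p = 0.162).

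Promoters are shown for genes of these groups that carry the motif known for them, and for GPR174. They are given for HLA-DMA (the CCAAT-type sequence CTGATTGG) and for TAP1, RSAD2 and GPR174 (GAAA, any 2 bases and GAAA again, the core of interferon-response elements), with matches on either strand in capitals. The windows, of the same kind as above, are chr6:32953098-32953347 and chr6:32853705-32853954 on the minus strand, and chr2:6877527-6877776 and chrX:79144438-79144687 on the plus strand.
HLA-DMA: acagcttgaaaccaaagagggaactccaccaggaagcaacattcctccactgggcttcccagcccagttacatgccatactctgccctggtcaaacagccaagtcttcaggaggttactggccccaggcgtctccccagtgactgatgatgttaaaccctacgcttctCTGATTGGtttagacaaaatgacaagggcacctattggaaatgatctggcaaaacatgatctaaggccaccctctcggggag
TAP1: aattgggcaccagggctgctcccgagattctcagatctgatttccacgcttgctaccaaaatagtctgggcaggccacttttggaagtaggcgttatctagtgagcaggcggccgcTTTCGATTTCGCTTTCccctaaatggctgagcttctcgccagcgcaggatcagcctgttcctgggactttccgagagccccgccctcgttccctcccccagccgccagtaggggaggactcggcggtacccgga
RSAD2: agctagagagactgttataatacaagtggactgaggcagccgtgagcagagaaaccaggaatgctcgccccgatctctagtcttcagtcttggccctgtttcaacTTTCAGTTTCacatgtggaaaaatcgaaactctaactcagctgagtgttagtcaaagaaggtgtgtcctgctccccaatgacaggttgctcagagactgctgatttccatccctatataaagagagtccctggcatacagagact
GPR174: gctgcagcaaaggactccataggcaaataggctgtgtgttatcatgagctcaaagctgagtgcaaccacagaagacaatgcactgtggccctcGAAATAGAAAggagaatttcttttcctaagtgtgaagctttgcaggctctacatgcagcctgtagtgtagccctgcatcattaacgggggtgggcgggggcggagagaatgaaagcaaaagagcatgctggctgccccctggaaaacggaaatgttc
CTGATTGG was found in 5 of 19 windows of class II genes (26.3%), in 5 of 24 windows of class I genes (20.8%) and in 3.81% of all 35093 windows. The interferon-response core was found in 26 of 44 windows of the interferon-stimulated genes (59.1%), whichever way the gene moved, in 8 of 24 windows of class I genes (33.3%), and in 3.02% of all windows. RSAD2 has more than 1 window in the table, and the one with a match is shown.

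Granule genes were mostly lower, and single phagocyte genes much higher. MPO, the myeloperoxidase of azurophil granules, was at 33.6, 37.6 and 33.7 CPM with DMSO and at 12.6, 11.0 and 12.8 CPM with SEL120-34A, a change of -1.53 ± 0.06 (edgeR adjusted p = 1.31e-19). AZU1, another azurophil protein, was at 2.07 ± 0.402 CPM and then at 0.789 ± 0.0813 CPM (-1.39 ± 0.14), LYZ (lysozyme) changed by -0.34 ± 0.02 and RNASE2, a ribonuclease of granules, by -0.26 ± 0.03. In all, 6 of 11 granule genes fell and 2 rose. MPEG1, a pore-forming protein of phagocytes, had an opposite course, from 39.4, 37.2 and 37.8 to 140.3, 147 and 138 CPM, a rise of 1.89 ± 0.03 (edgeR adjusted p = 2.49e-29). Its treated libraries stood more than 90 CPM above the highest control.

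The MS4A family of tetraspan membrane proteins, which neighbour each other on chromosome 11, rose in 7 of the 8 genes tested (median 0.94). MS4A6A was at 95.6, 102 and 103 CPM with DMSO and at 216, 209 and 216 CPM with SEL120-34A (1.09 ± 0.03). MS4A4A, 60185702 to 60317944, was at 13.4, 13.5 and 13.7 CPM and then at 46.3, 47.2 and 47.3 CPM (1.79 ± 0.04), with less than 1.1 CPM between the libraries of a group. MS4A7 rose by 0.73 ± 0.07 and MS4A3 by 0.44 ± 0.05. MS4A2 was at 0.46 ± 0.58 and did not pass, and the other 7 listed genes, MS4A1 among them, had 0 counts. Of 30 monocyte and macrophage surface genes, 6 rose and 11 fell. LILRA2, an activating immunoglobulin-like receptor, was at 64.4, 66.2 and 61.6 CPM and then at 30.6, 31.4 and 32.9 CPM (-1.02 ± 0.04). CSF1R, the receptor of macrophage colony-stimulating factor, went from 31.1 ± 1.90 to 19.1 ± 1.52 CPM (-0.70 ± 0.05), and ITGAX, the integrin chain CD11c, fell by 1.11 ± 0.13. FCGR2A, an Fc receptor, rose by 0.30 ± 0.03. Receptors for G-CSF and for the shared chain of GM-CSF and IL3 were lower, with CSF3R at -0.44 ± 0.03 and CSF2RB at -0.32 ± 0.03, in a list where 9 of 17 fell and 4 rose.

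Transcription factors of these lineages moved both ways. ETS2 was at 172, 172 and 167 CPM with DMSO and at 302, 317 and 310.4 CPM with SEL120-34A (0.87 ± 0.02), the largest rise among 21 myeloid factors, of which 7 rose and 7 fell. CEBPE, which acts late in granulocyte maturation, rose by 0.42 ± 0.04, SPI1 (PU.1) had a change of -0.17 ± 0.03, and CEBPA, at -0.14 ± 0.06, did not pass (adjusted p = 0.0719) but did under 7 alternatives, among them without replicate 3 of DMSO and without replicate 1 of SEL120-34A. Of 26 stem and progenitor factors, 11 rose and 7 fell, with ZEB1 at 0.87 ± 0.08, BCL11A at 0.44 ± 0.03 and LMO2 at 0.33 ± 0.03. LAMP5 and PLAC8, known from plasmacytoid dendritic cells, rose by 0.94 ± 0.03 and 0.84 ± 0.02, PLAC8 from 149 ± 4.02 to 267 ± 4.23 CPM. Their dendritic list of 16 held 6 rises (2 with a filter of 1 CPM) and 5 falls. NRP1 and CD1D, also on it, were lower, from 3.72 ± 0.345 to 2.81 ± 0.202 TPM and from 2.57 ± 0.0802 to 1.47 ± 0.176 TPM.

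SERPINB2, an inhibitor of plasminogen activators, and SERPINB10 lie next to each other on chromosome 18. SERPINB2 (63871692 to 63903890) was at 2.69, 2.01 and 2.57 CPM with DMSO and at 9.35, 9.51 and 7.42 CPM with SEL120-34A, a change of 1.85 ± 0.14 (edgeR adjusted p = 1.49e-09). SERPINB10 (63897174 to 63936111) was at 2.34, 1.98 and 2.03 CPM and then at 6.30, 6.52 and 5.95 CPM, a change of 1.56 ± 0.10. In the annotation the ranges of these genes overlap on the same strand, so their counts are not fully independent. SERPINB8, their neighbour in the family, rose by only 0.19 ± 0.03. PLAU, urokinase, was at -0.23 ± 0.04 and its receptor PLAUR at -0.59 ± 0.08. Of 9 genes of the SERPINB and plasminogen list, 4 rose and 3 fell.

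Most genes of the target complex changed little. CDK8 was at 38.1, 37.9 and 36.8 CPM with DMSO and at 35.6, 38.7 and 37.4 CPM with SEL120-34A, a change of -0.01 ± 0.03 (95% interval -0.08 to 0.05) that did not pass. CDK19 was at 0.05 ± 0.05 (-0.06 to 0.15), CCNC at 0.03 ± 0.03 and MED12 at 0.05 ± 0.03, none of which passed. MED13L, a paralogue of MED13, was at 319, 308 and 299 CPM and then at 411, 447 and 426 CPM, a rise of 0.47 ± 0.04 (edgeR adjusted p = 9.92e-09). MED12L, at about 3 CPM, fell by 0.36 ± 0.11, and MED13 was at -0.05 ± 0.03. Of 26 subunits of the Mediator core, 6 rose and 5 fell (3 rises without replicate 2 or 3 of DMSO, and 3 of each without replicate 1 of SEL120-34A), and all lay between -0.24 and 0.20, with MED21 the highest (0.20 ± 0.03).

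CLK1, a kinase of splicing factors, was at 61.0, 64.8 and 64.9 CPM with DMSO and at 115, 116 and 120.5 CPM with SEL120-34A, a change of 0.88 ± 0.03 (edgeR adjusted p = 8.63e-23). CLK4 and CLK3 rose by 0.78 ± 0.04 and 0.40 ± 0.03. Their list, of BCLAF1, its partners and splicing kinases, held 4 rises and 3 falls among 13 (median -0.02). Of 26 hnRNP and SR protein genes 17 fell and 3 rose (median -0.11). SRSF1 had a change of -0.29 ± 0.03 and HNRNPH1 of -0.22 ± 0.03. HEXIM1, which holds the elongation kinase P-TEFb inactive, fell by 0.44 ± 0.04, while CDK9, the kinase of P-TEFb, rose by 0.18 ± 0.03 and BRD2 fell by 0.12 ± 0.02. HEXIM2 rose by 0.62 ± 0.10. Of the 11 replication-independent histone genes 6 fell and 1 rose. H1-10, a linker histone, fell by 0.54 ± 0.03, and MACROH2A1, which encodes a repressive variant, rose by 0.23 ± 0.02.

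Of the cell cycle genes that changed, most were lower, by modest amounts. Falls also outnumbered rises among all tested genes at 20 to 100 CPM, with 1721 falls and 1149 rises among 5452. Of 37 DNA replication and G1/S genes, 16 fell and 7 rose (median -0.07). CCNE2, cyclin E2, was at 36.4, 36.7 and 39.6 CPM with DMSO and at 25.2, 23.6 and 24.2 CPM with SEL120-34A (-0.63 ± 0.04). RRM2, a subunit of ribonucleotide reductase, fell by 0.45 ± 0.02. Of 28 mitosis genes 13 fell and 2 rose, with ESPL1, separase, at -0.43 ± 0.03, CDK1 at -0.26 ± 0.03 and, against the trend, BIRC5 (survivin) at 0.19 ± 0.03. Among cyclins and inhibitors, CDKN1B (p27) rose by 0.40 ± 0.04, CDK6 by 0.30 ± 0.02, and CDKN2D fell by 0.65 ± 0.06. MYC had a change of -0.12 ± 0.03. Of 27 p53 targets 12 rose and 2 fell (1 to 4 falls under other settings), and TP53I3, a quinone oxidoreductase, was at 11.4, 10.8 and 11.5 CPM and then at 20.7, 21.1 and 21.3 CPM (0.91 ± 0.04).

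Of the BCL2 family, which decides whether mitochondria release cytochrome c, no member changed by 2-fold. BCL2, the target of venetoclax, was at 426, 407 and 399.7 CPM with DMSO and at 467, 504 and 489 CPM with SEL120-34A, a rise of 0.24 ± 0.03 (edgeR adjusted p = 2.34e-08). The groups did not overlap. Its anti-apoptotic relatives MCL1 and BCL2L1 were lower, at -0.17 ± 0.02 and -0.18 ± 0.04, and BCL2L2 and BCL2A1, at -0.35 ± 0.15 and -0.44 ± 0.40, did not pass. BCL2L2 passed without replicate 1 of DMSO (adjusted p = 0.033). The effectors BAX and BAK1 were at -0.05 ± 0.02 and 0.04 ± 0.04 and did not pass, though BAX did with DESeq2 or RSEM counts. Of the BH3-only proteins, BBC3 (PUMA) rose by 0.35 ± 0.09 and BCL2L11 (BIM) by 0.15 ± 0.03, BID fell by 0.08 ± 0.03 (a call lost without replicate 2 of SEL120-34A), and PMAIP1 (NOXA), BAD and BMF were at 0.03 ± 0.07, -0.08 ± 0.04 and -0.07 ± 0.08 and did not pass, except BAD without replicate 2 of SEL120-34A. BNIP3, also a target of HIF, was at 213, 164 and 178 CPM and then at 101, 139.7 and 111 CPM, a change of -0.66 ± 0.21 (adjusted p = 0.0257). Its call was lost without replicate 1 of DMSO and without replicate 1 or 3 of SEL120-34A, and BNIP3L, at -0.16 ± 0.20, did not pass.

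Glycolysis genes and HIF targets held 16 falls and 1 rise among 39 tested, with a median of -0.26. Abundant glycolytic enzymes were lower. GAPDH and ENO1 changed by -0.22 ± 0.03 and -0.24 ± 0.03. LDHA, lactate dehydrogenase, was at 2092, 1803 and 1880.4 CPM with DMSO and at 1330.2, 1439 and 1374 CPM with SEL120-34A (-0.48 ± 0.07). The list also differed between libraries of the same group. Its mean was 6.87, 6.64 and 6.64 log2 CPM in the DMSO libraries and 6.31, 6.66 and 6.38 log2 CPM in the SEL120-34A libraries, so that treated replicate 2 lay among the controls. Falls numbered 13 to 20 when libraries were left out in turn, 20 without that replicate, and 25 with limma-voom. EGR1, BNIP3 and ZFP36L1 were highest in CPM in DMSO replicate 1 and, among treated libraries, in replicate 2, as was this mean. So were FOS, JUN, ZFP36 and ICAM1 in TPM, while CCL2 and NAB2 shared only the high DMSO replicate 1. The part of this library difference in the changes of these genes was not tested. ALDOA, at -0.75 ± 0.06, had only 18.9 ± 1.16 CPM by counts with DMSO but 2414 ± 147 TPM, so most of its reads were not assigned to it in the count files and its change is uncertain.

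Ribosomal protein genes had 39 rises and 2 falls among 73, with a median of 0.07. The count was 25 without replicate 2 of DMSO and 53 without replicate 1 of DMSO. RPL22 was at 116, 109.7 and 112 CPM with DMSO and 162, 163 and 160.0 CPM with SEL120-34A (0.52 ± 0.03), but its change was 0.26 with RSEM estimated counts and its level went from 528 ± 11.0 to 548 ± 6.03 TPM, so the size of its change is uncertain. RPS12 fell by 0.15 ± 0.02. Of 13 mitochondrially encoded genes 4 rose (7 without replicate 3 of SEL120-34A), with MT-CO1, a subunit of cytochrome oxidase, at 0.18 ± 0.03. Of 20 targets of NRF2, 9 were called lower and 2 higher, with ME1, malic enzyme, at -0.85 ± 0.07, PIR, an iron-binding nuclear protein, at -0.67 ± 0.06 and FTL, the light chain of ferritin, at -0.35 ± 0.03. ATF4 and amino acid genes fell in 14 of 27 and rose in 6, heat shock chaperones fell in 5 of 18 (3 without replicate 2 of SEL120-34A), with HSP90AA1 at -0.39 ± 0.03, and lysosome and autophagy genes fell in 9 of 26 and rose in 6 (median -0.05), with their regulator TFEB at -0.73 ± 0.06. On the scale of TPM, which is per length, the largest losses were in GAPDH, from 6575 ± 274 to 5553 ± 109 TPM, and FTL, from 2867 ± 65.3 to 2224 ± 47.0 TPM. The largest gains were in MT-CO1, from 14820.0 ± 96.1 to 16710.0 ± 775 TPM, and TMSB4X, the actin-binding thymosin beta 4, from 4908 ± 244 to 6032 ± 98.5 TPM. GLUL, glutamine synthetase, rose by 0.74 ± 0.14, with counts of 913, 818 and 796 CPM in DMSO and 1235, 1659 and 1318 CPM in SEL120-34A libraries.

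Of 18 chemokine system genes 9 fell and 4 rose. Their changes ran from -1.58, that of CCL2, to 2.49 around a median of -0.30. CXCL16, a membrane-bound chemokine, was at -0.69 ± 0.07. Of 31 genes of the MYC network and nucleolus 13 fell and 5 rose, among them MXD4, an antagonist of MYC (0.35 ± 0.03). Cytarabine handling genes fell in 6 of 9, with DCTD, a deaminase of deoxycytidylate, at -0.28 ± 0.03 and SAMHD1, which hydrolyses the active drug form, at -0.17 ± 0.03. Of 10 DNA methylation enzymes 5 fell and 2 rose, with TET2 at 0.19 ± 0.04 and TET3 at -0.21 ± 0.03. TFIID and SAGA TAF genes held 7 falls and 3 rises among 17, led by TAF9B (-0.66 ± 0.06). NR1H3, a liver X receptor, rose by 0.67 ± 0.07 among 12 genes with 3 rises and 4 falls. Cholesterol synthesis and SREBP genes had 6 rises and 8 falls among 30, and 12 rises and 5 falls without replicate 1 of DMSO. ER chaperones had 7 rises, CALR among them, and 5 falls among 21, with HSPA5 (BiP) at -0.24 ± 0.03. Their rises numbered 2 without replicate 2 of DMSO and 3 without replicate 3 of DMSO or replicate 1 of SEL120-34A, and their falls 1 without replicate 1 of DMSO or replicate 3 of SEL120-34A and 3 without its replicate 2. Of 13 NAD metabolism genes 5 rose and 2 fell (range -0.84 to 1.75), with NMNAT1, a nuclear enzyme of NAD synthesis, at 0.68 ± 0.07 and BST1, a cyclase paralogous to CD38, at -0.84 ± 0.09.

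Antisense and lincRNA genes were called more often upward than downward. Of 1697 antisense genes tested 395 rose and 75 fell (median 0.24), and of 1389 lincRNA genes 280 rose and 87 fell, against 2955 and 3451 of 13339 protein-coding genes. Sense intronic genes and processed pseudogenes went the other way, with 18 rises and 37 falls among 343 and 50 rises and 68 falls among 2004. Further noncoding classes also had more rises than falls, such as 56 and 24 among 240 processed transcripts and 21 and 7 among 222 unprocessed pseudogenes. Level differs between these classes, and its part was not tested. At under 1 CPM coding genes also had more rises, 378 against 133 falls among 2148, beside 206 and 21 among 1231 antisense and 154 and 32 among 1016 lincRNA genes. At 1 to 5 CPM antisense genes had 128 rises and 28 falls among 332, lincRNA genes 81 and 24 among 246, and coding genes 317 and 284 among 1262. At 5 to 20 CPM the rises and falls were 51 and 18 for antisense, 37 and 23 for lincRNA and 536 and 574 for coding genes. TRDC, the constant gene of the T cell receptor delta chain, was at 1.46, 1.27 and 1.09 CPM with DMSO and at 10.1, 9.37 and 10.4 CPM with SEL120-34A (2.97 ± 0.11), and TRAC, that of the alpha chain, rose by 0.91 ± 0.15. The CD3 genes that would mark T cells had at most 6 counts in any library. MIR223HG, the host transcript of the myeloid microRNA miR-223, was at 49.0, 50.4 and 51.5 CPM and then at 21.8, 23.5 and 21.4 CPM (-1.18 ± 0.04). FAM245B, LINC02573 and INHBA-AS1 rose by 4.64, 1.96 and 1.87, and LINC00504 and SNORA73B had changes of -1.07 and -1.02.

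To ask which of these changes differed in size between the compounds, SEL120-34A was compared with AML874 at 24 h. The doses are not given, so the comparison is of these cultures and not of the compounds at a known concentration. Of 20920 genes, 4109 (19.6%) were called, 2435 higher with SEL120-34A (11.6%) and 1674 lower (8.00%). Against DMSO, AML874 had 46.8% of genes called, 23.1% higher and 23.7% lower. Both compounds were set against the same 3 DMSO libraries, so their changes share an error and are given side by side. SERPINB2 had 1.85 ± 0.14 with SEL120-34A and 0.17 ± 0.15 with AML874, a difference of 1.68 ± 0.14 (edgeR adjusted p = 3.74e-08). SERPINB10 had 1.56 ± 0.10 and 0.11 ± 0.11, a difference of 1.45 ± 0.10. Levels of these genes with AML874 were 2.73 ± 0.129 and 2.28 ± 0.316 CPM, against 2.42 ± 0.365 and 2.12 ± 0.197 CPM with DMSO. CLEC5A, an activating C-type lectin of myeloid cells, was at 0.12 ± 0.11 with SEL120-34A, which did not pass, and at -2.01 ± 0.13 with AML874, a difference of 2.13 ± 0.13. MPO was lower with AML874 (4.79 ± 0.473 CPM) than with SEL120-34A (12.1 ± 1.00 CPM), a difference of 1.34 ± 0.07. ZDHHC11, a palmitoyltransferase gene, moved in opposite directions, 0.68 ± 0.06 and -0.62 ± 0.07.

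ID2 fell more with SEL120-34A, -1.10 ± 0.05 with SEL120-34A and -0.16 ± 0.05 with AML874, a difference of -0.94 ± 0.05 (edgeR adjusted p = 1.28e-13). CCR1, a chemokine receptor, RSAD2, HLA-DOA and PIGZ, of glycolipid anchor synthesis, rose less with SEL120-34A, with differences of -0.72 ± 0.14, -0.69 ± 0.08, -0.63 ± 0.10 and -0.63 ± 0.08. The rise of CCR1 with SEL120-34A (0.57 ± 0.15) lost its call when only these groups were modelled. Of the 17 class II genes 11 were called lower with SEL120-34A than with AML874. The list medians against DMSO were 0.49 and 0.70. All 12 called differences among 13 mitochondrially encoded genes were likewise lower with SEL120-34A. EGR1 was at -3.45 ± 0.23 and -2.87 ± 0.22, a difference of -0.58 ± 0.24 (95% interval -1.09 to -0.06), which did not pass (adjusted p = 0.115). GPR174 differed by -0.05 ± 0.06 (-0.18 to 0.07) and BCL2 by 0.01 ± 0.03 (-0.04 to 0.07), and neither passed.

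**Figure D4:**
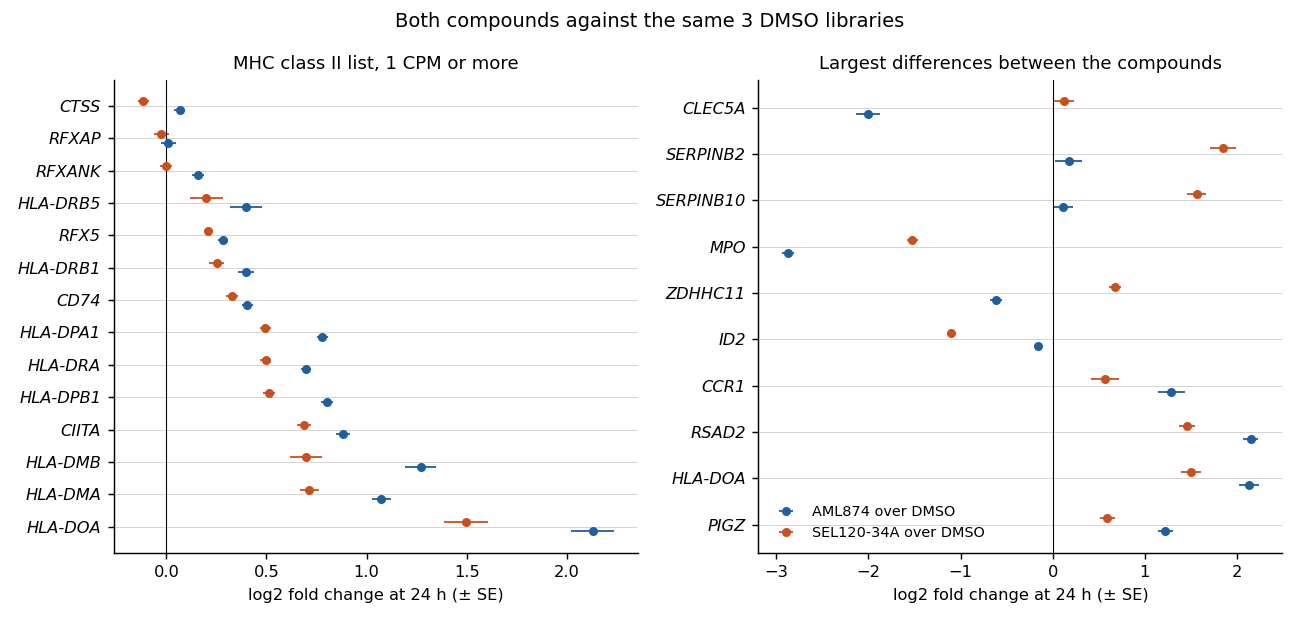
Log2 fold change over DMSO at 24 h (x axis, ± SE) with SEL120-34A (orange) and AML874 (blue), for class II genes of at least 1 CPM (left) and for the 5 genes with the largest difference in each direction (right). Class II changes lie higher with AML874 than with SEL120-34A for each gene shown, 11 of 14 of them by a called difference, while SERPINB2 and SERPINB10 are far from 0 only with SEL120-34A.

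The same treatment at 8 h, with its own DMSO libraries, was used to see which changes differed in time. At 8 h 9425 genes (45.1%) were called, 22.4% of all tested higher and 22.6% lower, and 5044 were called at both times, which is 64.0% of the genes called at 24 h and 53.5% of those called at 8 h. Of the 5044, 4318 moved the same way and 726 the opposite way. The effect at 24 h differed from that at 8 h for 5706 genes (27.3%), 2979 higher (14.2%) and 2727 lower (13.0%). That split depends on the scaling: with library totals alone 1811 were higher and 4418 lower. CD34 rose by 1.50 ± 0.12 at 8 h, from 0.910 ± 0.0817 to 2.57 ± 0.108 CPM, and by 3.41 at 24 h (difference 1.91 ± 0.17, edgeR adjusted p = 1.03e-10). SERPINB2 was at 0.14 ± 0.16 at 8 h and SERPINB10 at 0.13 ± 0.13, neither called, and their effects at 24 h were higher by 1.71 ± 0.21 and 1.44 ± 0.16. The list of class II chains and loading genes had a median of 0.04 at 8 h, with 5 rises and 0 falls among 17. HLA-DRA was at 0.01 ± 0.03 and CIITA already at 0.36 ± 0.04. RBM14, a coactivator of splicing and transcription, was at -1.66 ± 0.04 at 8 h, from 158 ± 6.19 to 50.1 ± 1.47 CPM, and at -0.11 ± 0.03 at 24 h, a call lost without replicate 2 or 3 of SEL120-34A.

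Several genes that were lower at 24 h had been higher at 8 h. CCL2 went from 9.01 ± 0.821 CPM with DMSO to 18.0 ± 1.25 CPM with SEL120-34A at 8 h, a rise of 1.00 ± 0.15, and -1.58 at 24 h, a difference of -2.58 ± 0.22 (edgeR adjusted p = 1.26e-06). ZFP36L1 did the same, with 0.52 ± 0.15 at 8 h and -1.26 at 24 h. CSF1R (0.39 ± 0.05 at 8 h), PIM1 (0.19 ± 0.03), ETV5 (0.19 ± 0.06) and CD300LF (0.23 ± 0.07) were also called higher at 8 h and lower at 24 h. C3AR1, the receptor of complement C3a, rose by 1.58 ± 0.28 at 8 h and did not pass at 24 h (-0.25 ± 0.25). EGR2 was at 0.38 ± 0.28 at 8 h, which did not pass, and its difference in time was -1.71 ± 0.36. EGR1, in contrast, was low at both times, -3.06 ± 0.23 and -3.45 ± 0.23, a difference of -0.39 ± 0.32 (95% interval -1.08 to 0.31) that did not pass. MIR223HG was at -2.44 ± 0.04 at 8 h and at -1.18 at 24 h, a difference of 1.27 ± 0.06.

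**Figure D5:**
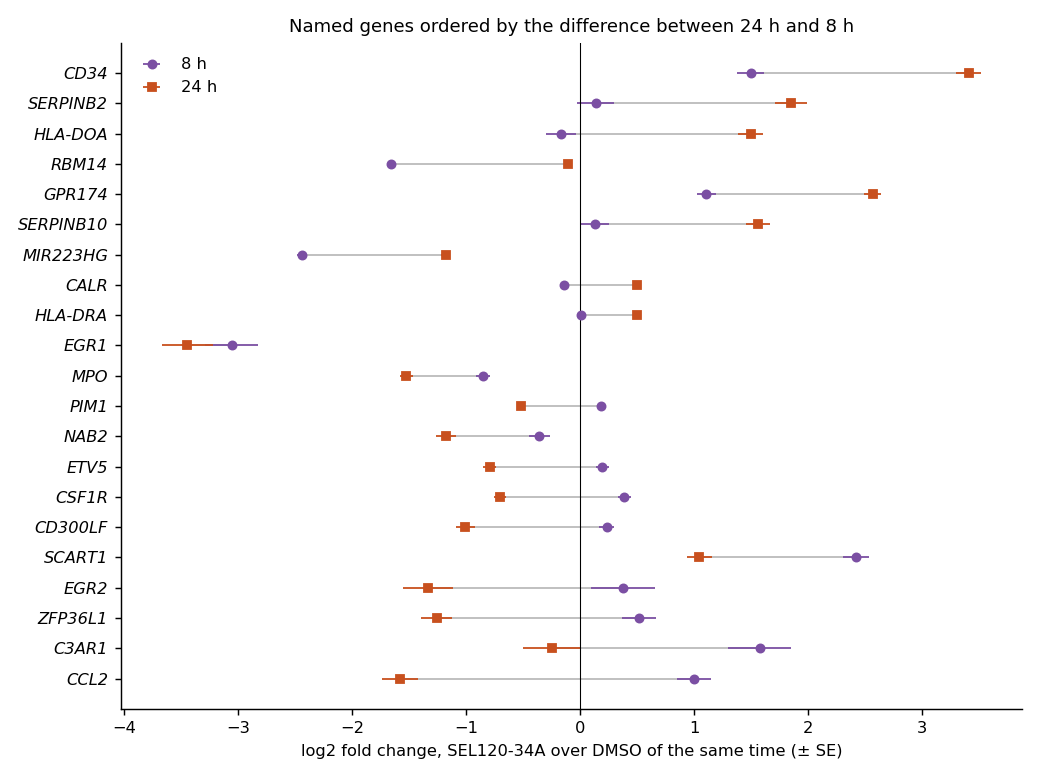
Log2 fold change of SEL120-34A over the DMSO libraries of the same time (x axis, ± SE) at 8 h (purple circles) and 24 h (orange squares) for 21 named genes, ordered by the difference. CD34 rose at both times and more at 24 h, CCL2 and ZFP36L1 lie on opposite sides of 0, and EGR1 is low at both times.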

How the data were processed

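RNA was extracted with TRIzol and column purification and sequenced after polyA selection, per the labels' protocols. Per the submitters' processing notes, the authors used STAR 2.7.1a and RSEM 1.3.2 with GRCh38. The annotation release is not given in the sources used here. The deposited files hold, per library, read counts per gene from STAR (unstranded, forward and reverse) and RSEM estimated counts and TPM. The reverse counts were used, since the forward counts came to 6.30 to 6.34% of them. Summary lines that name no gene (unmapped, multimapping, ambiguous and unassigned reads) came to 23.7 to 25.5% of each column in the 6 libraries and were left out. Of 60609 gene IDs, 60340 were paired with a symbol and 58502 found in GENCODE 29, whose positions and biotypes are given.

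edgeR 4.0.16 (R 4.3.3) fitted all 18 libraries in 1 quasi-likelihood model of 6 groups, with TMM scaling and edgeR's filter on low counts, which left 20920 genes, and Benjamini-Hochberg adjustment over all of them. Genes were called at an adjusted p under 0.05. SEL120-34A against DMSO at 24 h is the main contrast. The contrast with AML874 at 24 h and the difference of the effects at 24 h and 8 h come from the same model. CPM values use the TMM-scaled library sizes and each group has 3 libraries. The standard errors come from the model, which joins counting error with a spread within groups estimated over all 18 libraries. In simulated data made from these libraries with 20049 genes tested, 45, 49, 50 and 50 of 50 genes changed by 1.25, 1.5, 2 and 4 times were recovered, with 4 false calls. The changes were set only in genes with a DMSO mean of 1 CPM or more, so recovery at lower levels was not measured. Nearly all genes, 19849, were left unchanged, unlike the data, where 37.7% were called. The simulated spread left out the part that the model estimates gene by gene. It also held no shifts shared by many genes of a library, so the data may be noisier than the simulation.

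Members and gene lists were chosen with earlier results of these data known. Genes named are the 15 largest called rises and falls of protein-coding genes at 5 CPM with separate groups, 5 of other biotypes each way at 1 CPM, 5 each way by TPM, by difference from AML874 and by difference from 8 h, up to 4 called members of each of 53 lists, and all tested members of 7 lists (Mediator kinase module, EGR and NAB, ZFP36, guanylate-binding proteins, MHC class II and both BCL2 family lists). The 24 other genes, such as KIT, FLT3, FOS, JUN, DUSP6, BCL6, MYC and TRAC, and members or markers named only for a low count, were chosen after their values were seen. Replicate numbers were not used as pairs in the main model. Alternatives were other scalings (median-of-ratios, library totals), DESeq2 1.42.0, limma-voom (limma 3.58.1), other filters, only the groups compared, a replicate block, unstranded counts, RSEM estimated counts rounded to whole numbers, and leaving out each library. Promoter sequences are from RefSeq (GRCh38.p14), with an entry for 220 of the 285 named genes. Genes named by these rules that are not printed or shown are not reported here.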

Additional observations from a re-analysis of the deposited data

Results flagged for a closer look

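The change with SEL120-34A at 24 h was not the same as that at 8 h for 5706 genes (edgeR quasi-likelihood test of the difference, Benjamini-Hochberg adjustment), and for 22 of the 30 largest rises and falls. Among the largest rises, the log2 change at 24 h minus that at 8 h was 1.91 for CD34, 1.46 for GPR174, 0.97 for RAB7B, 0.47 for GGT5, 0.83 for MPEG1, 1.71 for SERPINB2, 1.33 for MYOM1, 0.77 for GBP4, 1.25 for KCNN2, 1.44 for SERPINB10 and 0.83 for FMN1, all larger at 24 h. Among the largest falls it was -2.58 for CCL2, -0.67 for MPO, -1.78 for ZFP36L1, -1.01 for TNFRSF12A, -0.82 for NAB2, -0.96 for DLG4, -0.53 for ITGAX, -0.62 for ID2, -0.60 for ITGA7, -0.64 for HBEGF and -0.88 for LILRA2. Of genes named only for the difference in time, RBM14 had 1.55, its fall being larger at 8 h, C3AR1 -1.83, SCART1 -1.38 and CD300LF -1.24. SCART1 rose at both times, by 2.42 ± 0.12 at 8 h and 1.05 ± 0.11 at 24 h.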

How the results depend on the processing

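Under the 16 alternatives to the main comparison, 246 of the 259 named genes that were called kept their call wherever they were tested, 13 lost it at least once, 6 of the 26 others gained one, and no call reversed. Calls numbered 7115 to 7973 with another scaling, test, filter, model or count, and 6890 to 7250 without each library in turn (higher 3251 to 3719, lower 3476 to 3704, and by 2-fold 506 to 580 and 137 to 168). The replicate block gave 7712 calls, 7654 of them among the 7879, all in the same direction. Deviations from the group mean had correlations across genes of -0.17, -0.376 and -0.00715 for same-numbered libraries and of -0.138 to 0.317 for the others. With 3 libraries a group, whose deviations sum to 0, these values cannot show whether the numbers pair the samples. A filter of 1 CPM in 3 libraries, which tests fewer low genes, left 131 rises and 37 falls of 2-fold, 13 and 3 against AML874, and 56 and 105 for the time difference. Falls of 2-fold against AML874 numbered 43 with DESeq2 and 109 with a filter of at least 1 count. For the time difference, library totals alone gave 1811 higher and 4418 lower. Without each library, calls against AML874 ranged from 3067 to 3985 (higher 1810 to 2441, lower 1183 to 1544, by 2-fold 60 to 79 and 50 to 74), and calls of the time difference from 5055 to 5720 (2647 to 3050, 2368 to 2670, 172 to 193 and 366 to 427). With unstranded counts the difference from AML874 reversed for HEXIM2 (-0.42), TAF9B (-0.23) and RPS23 (0.12), and the time difference for TAF9B (-0.24). With RSEM counts RPL22 reversed against AML874 (-0.0104). The cause was not tested. At under 1 CPM, where 15.9% of genes were called, depth limits what could be detected.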
